A study of Saccharomyces cerevisiae with 94 samples.

Results

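The 47 genes described here encode nucleolar and pre-ribosome assembly factors of the budding yeast Saccharomyces cerevisiae. They were taken as a fixed list of open reading frames, among them the box C/D protein gene NOP1 (YDL014W), the UTP genes and the genes of several RNA helicases, out of 6444 genes in the expression table. The rule uses no measured value. All 47 were found in the table and all 47 passed the filter on low values (a mean normalised read count of at least 10 over the libraries).

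RNA-seq was carried out on 94 libraries of haploid MATa W303a cells in 24 groups, made of 2 strains at 12 times with 4 replicates each, or 3 at 25 min. Replicate 2 of both strains is absent at 25 min. Both strains carry ade2-1, ura3-1 and his3-11, 15 as well as trp1-1 with leu2-3, 112, besides can1-100 and rad5-535, and both lack SML1, the gene of a ribonucleotide reductase inhibitor. In the control, called sml1Δ here, SML1 was replaced by URA3. The SSDDCS strain is sml1Δ::HphNT and also carries, at leu2, SLD7 and CDC45 on one divergent GAL1-10 promoter, at his3, SLD3-A with DBF4-A, and at trp1, SLD2 with DPB11, so that galactose over-expresses these 6 replication initiation factors. Cells grown in raffinose were held in G1 by alpha factor, received galactose for 30 min in the arrest, and were released into galactose. They were sampled in the arrest (G1) and at 5, 10, 15, 20, 25, 30, 35, 40, 45, 50 and 60 min after release. The controls share sml1Δ, raffinose growth, pheromone and galactose. A strain difference covers the over-expression, the added GAL1-10 promoters, the SLD3-A and DBF4-A constructs and the marker genes. It also covers any difference in state between the cultures of the 2 strains, and these cannot be told apart. The study's methods describe 1 culture sampled in series, so the replicate number is read here as a culture.

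Ribosome biogenesis starts in the nucleolus, where RNA polymerase I transcribes the ribosomal RNA precursor. Small nucleolar ribonucleoproteins (snoRNPs) modify the precursor, the small-subunit processome folds and cuts its first part, and helicases and GTPases remodel the particles that become the large subunit before export to the cytoplasm. In yeast the genes of these factors are known to be expressed together, high in growing cells and low under stress, and to share the promoter elements PAC and RRPE.

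Depth ranged from 8119387 to 21677438 reads in genes per library, with a median of 10031425, and replicate 1 of both strains was the deepest. All 6 over-expressed factors were higher in every SSDDCS library than in every sml1Δ library of the same time, in 72 of 72 combinations of factor and time, by 5.36 to 166-fold between group means. The 6 a-specific markers, which define MATa cells, had means of 982 to 2554 over all libraries, against 22.7 to 68.2 for MF(ALPHA)1, MF(ALPHA)2 and STE3 and 472 for SAG1, all of which are alpha-specific. The a-specific markers were highest in the pheromone arrest. Their mean log2 level went from 13.4 in G1 to 7.10 at 30 min in sml1Δ and from 13.3 to 7.93 in SSDDCS. At 30 min in sml1Δ BAR1 had a mean of 44.9, below the 436 of SAG1. The means over all libraries thus do not describe every time. Replicate 4 of sml1Δ went against the course of the other cultures at 50 and 60 min, as described below. The members' median strain differences at these times are given with and without it. So is the count of members called in sml1Δ from 30 to 60 min. Other values at these times include replicate 4 unless stated.

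The members lie on 12 chromosomes, none within 50 kb of a chromosome end, where 11.2% of the placed nuclear genes lie. Their median distance to the nearest of 352 annotated origins was 9415 bases, against 10065 bases for all placed nuclear genes. RCL1 (YOL010W), the one member called between the strains below, starts at chrXV:307938 and is 318 bases from ARS1512, and NOC2 is the member nearest to an origin, at 96 bases. NOG2 (YNR053C, chrXIV:721120-723112, minus strand) is the one member with an intron and the one that overlaps another annotated gene, the small nucleolar RNA gene SNR191 (chrXIV:721938-722211, same strand) inside it.

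To see what the members share at the DNA level, the 300 bases from 250 before to 50 after each start codon were searched on both strands for the PAC core GATGAG and the RRPE core AAAAATTT. PAC was found in this window of 45 of 47 members (95.7%) and RRPE in 40 (85.1%), and 39 (83.0%) held both. Over 5821 protein-coding genes of the nuclear genome the shares were 20.2%, 14.4% and 5.79%. The 81 other assembly factors came close to the members, with PAC at 87.7% and RRPE at 81.5%, whereas the 137 ribosomal protein genes had 10.9% and 13.1%. Of 71 PAC matches before the start codons of members 68 lay between 60 and 200 bases upstream, as did 59 of 66 RRPE matches, and their medians were 121 and 140.5 bases. UTP22 was the one member with neither. Matches overlap where a motif repeats, and a run of AAAAATTTTT is counted on both strands.

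The stretches from 250 to 91 bases before the start codon are printed for the 8 members whose values at 30 min are given below, to show how alike these promoters are. They are taken from the R64 reference (RefSeq), 5′ to 3′ on the coding strand, with PAC and RRPE matches on either strand in capitals (CTCATC and AAATTTTT are the motifs read on the other strand).
RCL1 (chrXV:307688-307847, plus strand): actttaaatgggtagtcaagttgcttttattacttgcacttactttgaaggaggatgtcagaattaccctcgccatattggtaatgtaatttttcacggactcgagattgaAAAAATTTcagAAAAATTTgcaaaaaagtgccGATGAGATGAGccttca
DBP9 (chrXII:696921-697080, minus strand): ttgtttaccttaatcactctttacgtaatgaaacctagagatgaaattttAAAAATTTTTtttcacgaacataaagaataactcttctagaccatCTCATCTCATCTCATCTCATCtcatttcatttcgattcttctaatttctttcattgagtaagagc
DRS1 (chrXII:131479-131638, plus strand): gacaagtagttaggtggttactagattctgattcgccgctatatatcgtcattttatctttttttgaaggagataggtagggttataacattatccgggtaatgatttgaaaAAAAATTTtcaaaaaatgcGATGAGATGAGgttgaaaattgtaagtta
YTM1 (chrXV:832563-832722, plus strand): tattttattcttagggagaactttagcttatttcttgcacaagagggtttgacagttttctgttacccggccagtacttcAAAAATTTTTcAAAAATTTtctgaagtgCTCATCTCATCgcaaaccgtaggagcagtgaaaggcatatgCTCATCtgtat
NOP1 (chrIV:427114-427273, plus strand): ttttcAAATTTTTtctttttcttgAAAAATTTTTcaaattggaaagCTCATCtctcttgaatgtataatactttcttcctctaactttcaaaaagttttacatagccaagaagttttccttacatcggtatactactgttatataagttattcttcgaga
NSR1 (chrVII:807747-807906, minus strand): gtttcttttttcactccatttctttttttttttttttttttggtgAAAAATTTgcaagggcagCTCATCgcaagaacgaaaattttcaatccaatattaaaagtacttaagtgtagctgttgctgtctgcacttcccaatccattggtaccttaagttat
SDA1 (chrVII:982159-982318, minus strand): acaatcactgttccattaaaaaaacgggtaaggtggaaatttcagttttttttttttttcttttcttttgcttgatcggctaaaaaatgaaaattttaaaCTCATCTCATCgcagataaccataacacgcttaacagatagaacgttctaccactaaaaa
NOG2 (chrXIV:723203-723362, minus strand): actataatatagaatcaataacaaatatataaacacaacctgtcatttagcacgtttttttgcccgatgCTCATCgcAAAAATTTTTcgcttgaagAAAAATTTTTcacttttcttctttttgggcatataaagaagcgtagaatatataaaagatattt
DBP9 holds 4 overlapping PAC matches in 1 run, NOG2 holds 1 PAC and 2 RRPE runs, and SDA1 holds 2 overlapping PAC matches and no RRPE. The members with the lowest and the highest strain differences at 30 min both carry PAC. As 45 of 47 members do so, this says nothing about how PAC relates to the strain difference.

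Levels are compared between genes as normalised read counts per kb of coding sequence. The snoRNP proteins led the members. NOP1, the methyltransferase of the box C/D snoRNPs (fibrillarin in human), had a mean of 6510 per kb over the 94 libraries, GAR1 and NHP2 of the H/ACA snoRNPs 5028 and 4828, and the nucleolin-like NSR1 4390. UTP10, a very long scaffold protein of the UtpA complex, was the lowest at 454. The members' median was 846 per kb, against 476 for the 5844 genes with a coding length, and 46 of 47 were above that median gene. Across libraries the members moved together. The correlation of each member with the mean of the other 46 over 94 libraries was 0.933 at the median (lowest 0.694, for NOG2), and 0.958 (lowest 0.809, for UTP22) after the group means were removed. These values describe libraries that share cultures, time points and a scaling, and have no test.

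The largest change of the whole course was the release from G1. In the first 5 min every one of the 47 members had a higher mean, in both strains. SDA1 (YGR245C), needed for large-subunit maturation and export, had the largest step in both strains, while RCL1 and UTP22 of the small-subunit processome had the smallest.

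In sml1Δ, SDA1 had normalised read counts of 994, 1179, 1183 and 1185 in G1 and 2890, 2372, 2276 and 2412 at 5 min (replicates 1 to 4). In SSDDCS the values were 1296, 746, 814 and 1021 in G1 and 3004, 2485, 2571 and 2212 at 5 min. No library at 5 min came near one in G1. The log2 difference was 1.13 (SE 0.26, limma adjusted p = 0.000122, n = 4) in sml1Δ and 1.43 (SE 0.26, adjusted p = 1.71e-06) in SSDDCS. NUG1, a GTPase of the nuclear large-subunit particle, went from 1477, 1542, 1778 and 1761 to 3440, 3286, 3486 and 3201 in sml1Δ. HAS1, a helicase of both subunits' pathways, went from 1057, 1035, 1185 and 1259 to 2307, 2040, 2273 and 2293 in the same strain. Both rose in every culture, by 1.04 and 0.98 on the log2 scale (SE 0.19 and 0.20, limma adjusted p = 2.01e-06 and 2.11e-05). RCL1 stood at 1015, 1077, 1292 and 1149 in G1 and at 1212, 1311, 1287 and 1407 at 5 min in sml1Δ, where the ranges overlapped, and its log2 difference of 0.21 (SE 0.13) was not called (adjusted p = 0.175).

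Called members, at a Benjamini-Hochberg adjusted p under 0.01 in limma over all genes, numbered 33 of 47 (70.2%) in sml1Δ and 44 of 47 (93.6%) in SSDDCS, all higher. Of all 6404 genes outside the constructs 23.2% and 25.6% were called higher. The members' median log2 differences were 0.60 and 0.78, against −0.03 and 0.00 for all genes. Paired by culture, 46 and 47 members were called higher, while 60.8% and 63.8% of genes were called in either direction. The 3 members not called in SSDDCS without the pairing were RCL1, UTP10 and SOF1 (log2 differences 0.35, 0.51 and 0.44).

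Among the roles with several genes, the PeBoW complex of the large-subunit precursor had the largest medians. Its 3 genes NOP7, ERB1 and YTM1 were all called in both strains, with medians of 0.87 in sml1Δ and 1.01 in SSDDCS. The export and other large-subunit factors (NOC2, NOP2, NOP4, SDA1, RRP12 and the export adaptor NMD3) had medians of 0.71 and 0.95, the 6 large-subunit helicases 0.68 and 0.84, and the 4 GTPases NOG1, NOG2, NUG1 and LSG1 0.70 and 0.93. The snoRNP proteins, the most abundant per kb, had smaller steps, with medians of 0.47 and 0.56 for box C/D and 0.45 and 0.52 for H/ACA. In the small-subunit processome the UtpA complex had medians of 0.45 and 0.68 with 1 and 3 of 4 genes called, and the UtpB complex 0.58 and 0.72 with 2 and 4 of 4.

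Of the genes around the members, the 81 other assembly factors had 67 called higher in sml1Δ and 75 in SSDDCS (medians 0.74 and 0.90). Of 12 RNA polymerase III subunits 7 and 10 were called higher, and of 16 genes of RNA polymerase I and its factors 7 and 9, with 0 and 1 lower. Of the 137 ribosomal protein genes 1 was called higher and 2 lower in sml1Δ and 3 and 2 in SSDDCS. Of the 14 pheromone-induced genes 13 were called lower in each strain (medians −3.76 and −3.98), and their mean log2 level fell from 10.4–11.2 to 7.04–7.46 in sml1Δ and from 10.3–11.6 to 7.18–7.74 in SSDDCS. Its part in the members' step was not tested.

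**Figure D1:**
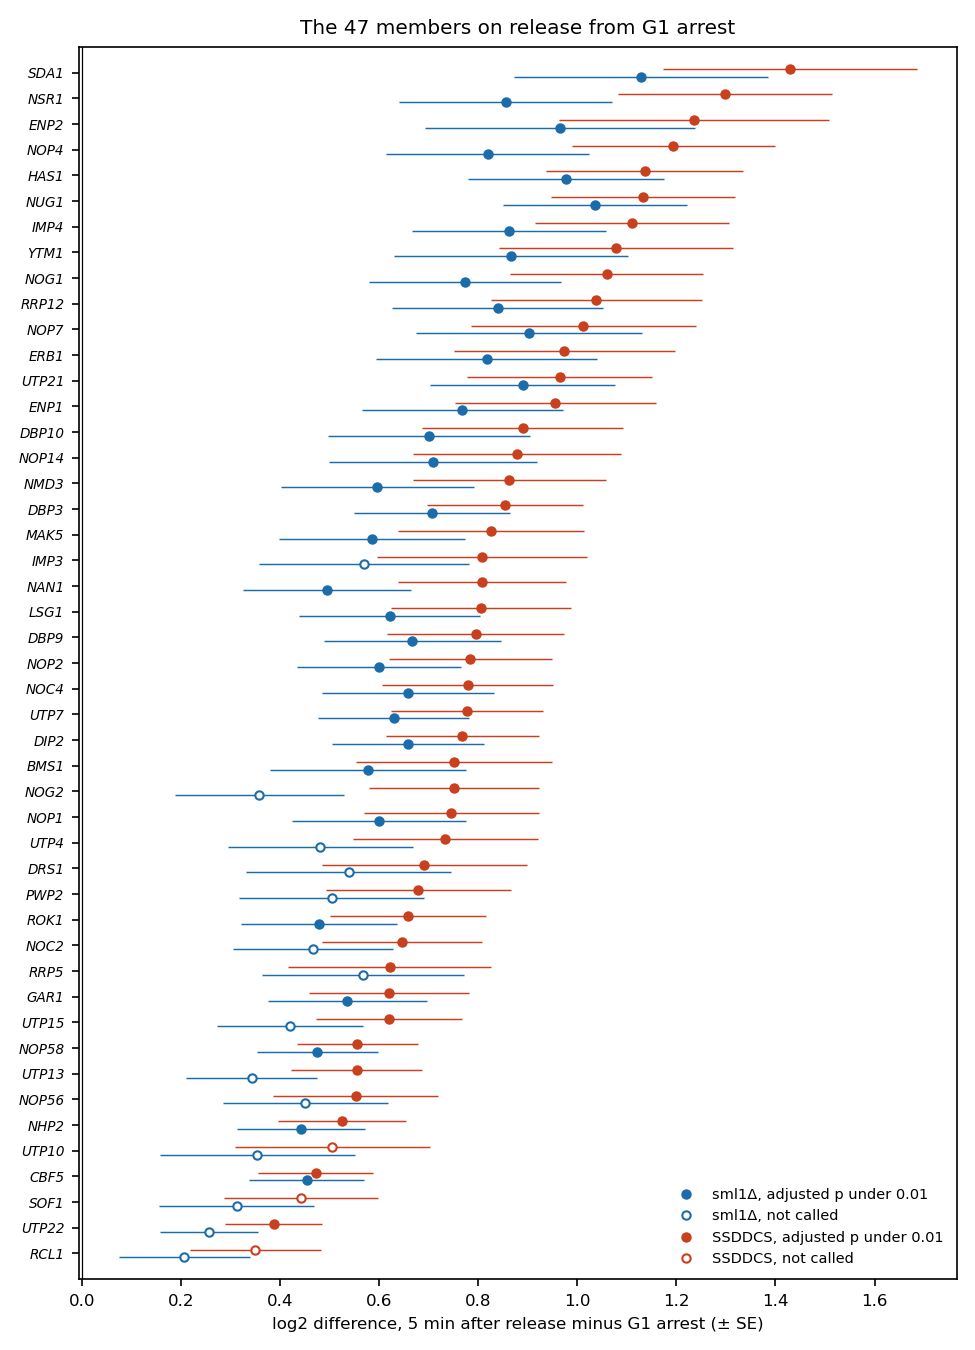
Log2 difference between 5 min after release and G1 arrest (horizontal axis, log2 of normalised read count + 1) for each of the 47 members (rows), in sml1Δ (blue) and SSDDCS (orange), with the standard error of the limma fit as bars and filled points for an adjusted p under 0.01. All points lie above 0, from 0.21 for RCL1 to 1.13 for SDA1 in sml1Δ and from 0.35 to 1.43 for the same genes in SSDDCS.

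After 5 min few members were called in any later step within a strain. The highest group mean of the course was at 5 min for 25 members in sml1Δ and 41 in SSDDCS. In sml1Δ another 15 members were highest at 40 min. The lowest mean was in G1 for 42 and 37 members, and at 25 min for the other 10 in SSDDCS. Over the members as a set (the mean log2 level per library, averaged within a group), SSDDCS fell from 11.20 ± 0.14 (SD, n = 4) at 5 min to 10.63 ± 0.052 (n = 3) at 25 min and stood at 11.02 ± 0.18 at 45 min. In sml1Δ it was 11.18 ± 0.083 at 5 min, 11.14 ± 0.33 at 40 min and 10.70 ± 0.35 at 60 min.

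HAS1, SDA1 and NUG1 had the widest range of the 12 group means in sml1Δ, at 1.15, 1.13 and 1.04 on the log2 scale, and UTP22, RCL1 and SOF1 the narrowest, at 0.30, 0.33 and 0.42. HAS1 had a mean of 1134 ± 106 (SD, n = 4) in G1, 2228 ± 126 at 5 min, 2550 at 35 min and 1593 ± 437 at 60 min. UTP22, which also joins a complex with the ribosomal protein gene activator Ifh1, stayed between 1858 ± 180 in G1 and 2290 ± 204 at 10 min. The SD of HAS1 between sml1Δ replicates was thus larger at 60 min than in G1.

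From 5 to 15 min 0 members were called in sml1Δ (6 at an unadjusted p under 0.05, all lower, with 0 by edgeR and 0 by DESeq2), where 13.7% of genes were called lower. At the unadjusted limit 46.9% of genes passed in either direction. In SSDDCS 2 were called lower, against 11.8% of genes. These were NSR1 (6349 to 7805 at 5 min and 3916 to 5436 at 15 min over the 4 libraries, log2 difference −0.69, SE 0.22, adjusted p = 0.00743) and UTP4 of the UtpA complex (1689 to 2317 and 1067 to 1501, −0.66, SE 0.19, adjusted p = 0.00322). In both genes the ranges of the 2 times did not overlap. Paired by culture, 5 members in sml1Δ and 19 in SSDDCS were called, all lower, while 42.1% and 40.5% of all genes were called. Without SSDDCS replicate 1, 2 or 3 the SSDDCS count without pairing was 0, and without sml1Δ replicate 3 it was 5.

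From 15 to 30 min 0 members were called in either strain, where 30.6% of genes in sml1Δ and 34% in SSDDCS were called. At an unadjusted p under 0.05 there were 0 in sml1Δ and 8 in SSDDCS (2 higher and 6 lower), with 0 and 0 by edgeR and 0 and 1 by DESeq2. Of all genes 47.8% and 50.7% passed that unadjusted limit. Paired by culture the counts were 0 and 8, the latter with NOG2 higher and 7 lower, against 43.3% and 45.8% of genes. In SSDDCS the unpaired count was 2 without sml1Δ replicate 1 or 3 and 1 without sml1Δ replicate 4.

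From 30 to 60 min 46 of 47 members had a lower mean in sml1Δ, with a median of −0.32, whereas the median in SSDDCS was 0.09. Only NAN1 (−0.53, SE 0.17, adjusted p = 0.00752) and UTP13 (−0.44, SE 0.13, adjusted p = 0.00415), of the UtpA and UtpB complexes, were called lower in sml1Δ, against 19% of genes. NAN1 went from 3119, 2000, 2009 and 3063 to 2107, 1403, 1503 and 1996, lower in every culture though the ranges overlapped. In SSDDCS the helicase gene DBP9 was called higher (0.58, SE 0.18, adjusted p = 0.00452), against 18.1% of genes, with 1206 to 1430 at 30 min and 1388 to 2353 at 60 min, ranges that overlapped through 1 library. Paired by culture 24 members were called in sml1Δ, all lower, and 9 in SSDDCS, 8 of them higher, against 49.9% and 53.4% of genes.

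The sml1Δ count for this last step rests on few libraries. It was 0 without sml1Δ replicate 1, 2 or 4 and 1 without sml1Δ replicate 3 or without SSDDCS replicate 2 or 3, and 7 with only the 50 and 60 min libraries of sml1Δ replicate 4 left out. The SSDDCS count was 0 without SSDDCS replicate 1, 2 or 3 and 2 without sml1Δ replicate 4. Replicate 4 of sml1Δ had a mean member level of 10.64 at 50 min and 10.94 at 60 min, whereas replicates 1, 2 and 3 went from 11.27, 10.63 and 10.64 to 11.07, 10.39 and 10.41. It was thus the one sml1Δ culture to go up between these times, and with its labels for these times exchanged the sml1Δ count was 11.

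**Figure D2:**
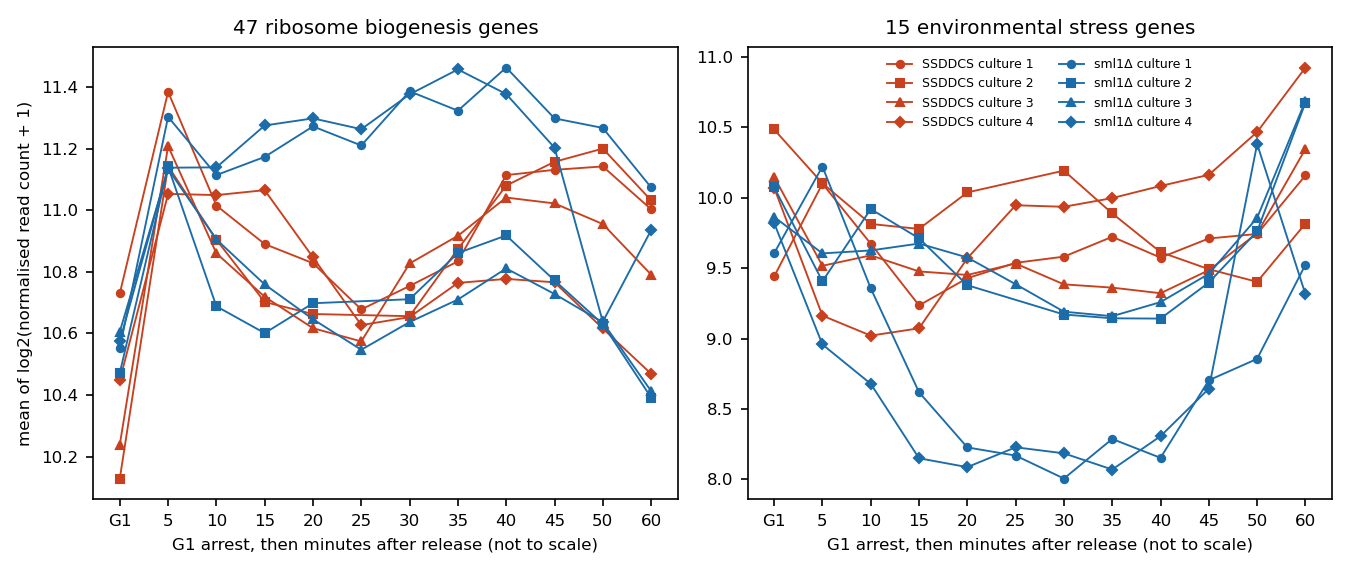
Mean of log2(normalised read count + 1) over the 47 members (left) and over 15 environmental stress genes (right) in every library, from G1 arrest through the minutes after release (horizontal axis, categories not to scale), with 1 line per replicate of sml1Δ (blue) and SSDDCS (orange). On the left, sml1Δ replicates 1 and 4 run near 11.4 at 30 min and the other 6 lines between 10.6 and 10.8, and on the right the same 2 cultures run lowest, at 8.01 and 8.19.

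The plot of levels by culture shows that the 4 sml1Δ cultures did not follow 1 course. At 30 min the mean log2 level of the members was 11.39, 10.71, 10.64 and 11.38 in sml1Δ replicates 1 to 4 and 10.75, 10.66, 10.83 and 10.65 in SSDDCS replicates 1 to 4. In sml1Δ 2 cultures were thus high and 2 lay within the SSDDCS range or just under it. The median over members of the SD between replicates was 0.41 in sml1Δ and 0.10 in SSDDCS at 30 min on the log2 scale, and it was larger in sml1Δ for 47 of 47 members. In G1 the order was the other way, at 0.12 and 0.29, with a larger SD in sml1Δ for 1 member.

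Stress genes such as HSP12 and CTT1, known to move against ribosome biogenesis, stood beside this. Their mean log2 level at 30 min was 8.01, 9.17, 9.19 and 8.19 in sml1Δ replicates 1 to 4 and 9.58, 10.19, 9.39 and 9.94 in SSDDCS. The 2 sml1Δ cultures with the high members had the low stress genes. At 30 min 5 of the 15 were called (33.3%, near the 31.2% of all genes called at this time), all higher in SSDDCS, led by the chaperone genes HSP26, SSA4 and HSP104 (log2 differences 2.94, 2.53 and 1.52). Of the 14 pheromone-induced genes 7 were called higher in SSDDCS and 0 lower, and their mean level of 7.64 to 7.96 lay above the 6.97 to 7.29 of sml1Δ. Mating-type markers also differed at 30 min. All 4 alpha-specific genes were called higher in SSDDCS, among them STE3, MF(ALPHA)1 and SAG1 (log2 differences 2.70, 2.38 and 0.57), with a mean log2 level of 5.29 to 5.69 in sml1Δ and 6.92 to 7.24 in SSDDCS. Of the 6 a-specific genes BAR1 and STE2 were called higher (2.16 and 0.72), with mean levels of 6.62 to 7.53 and 7.75 to 8.19. The part of any of these lists in the members' strain difference was not tested. In bulk RNA, fewer cells of a kind and less RNA per cell cannot be told apart.

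The comparison of the strains at each time asks how these genes differed through S phase in the strain that over-expresses the 6 factors, which lets late origins fire early. In G1 and between 15 and 40 min most members had lower means in SSDDCS and at 50 min most had higher ones. Only 1 of them passed the test, at 1 time. The members' median log2 difference (SSDDCS minus sml1Δ) was −0.16 in G1 and, in the order of the times, 0.02, −0.01 and −0.11 from 5 to 15 min. From 20 to 40 min it was −0.25, −0.39, −0.32, −0.25 and −0.15. In the last 3 samples, from 45 to 60 min, it was 0.03, 0.20 and 0.13, while the median of all genes stayed between −0.04 and 0.00 throughout. At 25 min, where replicate 2 is absent, sml1Δ replicates 1, 3 and 4 had mean log2 member levels of 11.21, 10.55 and 11.26. Replicate 2 of sml1Δ stood at 10.70 and 10.71 at 20 and 30 min. The part of its absence in the 25 min median was not tested. In G1, before release, 47 of 47 members had a lower mean in SSDDCS, and at 15 min 43 did. At 20, 25 and 30 min 47, 46 and 46 of 47 members had a lower mean in SSDDCS, and at 50 min 45 had a higher one. Without the 50 and 60 min libraries of sml1Δ replicate 4 the medians at these times were 0.15 and 0.21 and 4 members had a lower mean at 50 min, and with its 2 labels exchanged they were 0.12 and 0.20. The 45 min median turned to −0.06 without sml1Δ replicate 2 and −0.08 without sml1Δ replicate 3, where that at 60 min was 0.01 and 0.05. At 45 min the median was also below 0, at −0.02, without SSDDCS replicate 1 or SSDDCS replicate 2. The last 3 medians were 0.13, 0.34 and 0.25 without sml1Δ replicate 1 and 0.12, 0.32 and 0.25 without SSDDCS replicate 4.

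Calls were few. With 1 estimate of the spread over all groups, limma called 0 of 47 members at 11 of the 12 times and 1, RCL1, at 30 min. Over all 6404 genes the share called in either direction was 0.515% in G1, and 0.281%, 0.203%, 2.72% and 17.9% at the next 4 times (5 to 20 min). It was 21.5%, 31.2%, 27.4% and 19.7% from 25 to 40 min and 13.4%, 9.06% and 5.2% from 45 to 60 min. At an unadjusted p under 0.05 there were 1 member in G1 (NSR1), then 9, 22, 22, 10 and 3 from 20 to 40 min, 1 each at 45 and 50 min, and 0 at the other times. In G1 and at 20 to 45 min these were lower in SSDDCS and at 50 min higher. At the same unadjusted limit 38.3%, 42.1%, 50.0%, 46.97% and 40.7% of all genes passed from 20 to 40 min. Among the members the shares were 19.1%, 46.8%, 46.8%, 21.3% and 6.38%. In G1 and at 45 and 50 min 6.93%, 32.7% and 27.9% of all genes passed, against 2.13% of members each time. Of these times, the members' share was above that of all genes only at 25 min. DESeq2 on the recovered reads called 2 members at 25 min and 3 at 30 min, edgeR 1 at 30 min, and both called 0 at the other times. The shares of all genes above are those of limma. The shares for DESeq2 and edgeR are not given, so their counts are not read as results about the members.

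RCL1 encodes a processome protein that works with the GTPase BMS1. Its normalised read counts at 30 min were 1453, 998, 1118 and 1661 in sml1Δ replicates 1 to 4 and 893, 800, 1023 and 892 in SSDDCS. The groups overlapped only through sml1Δ replicate 2 and SSDDCS replicate 3. The log2 difference was −0.51 (SE 0.13, n = 4, limma adjusted p = 0.00115), a level in SSDDCS of 0.702 times that of sml1Δ, and its differences at 25 and 35 min were −0.34 and −0.33 (adjusted p = 0.0825 and 0.04). The adjusted p at 30 min was 0.032 in a fit to that time alone, 0.01 without sml1Δ replicate 1 and 0.0104 without SSDDCS replicate 2.

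The 3 lowest members at 30 min belong to the large-subunit pathway. DBP9, a DEAD-box helicase, had 2217, 1544, 1411 and 2439 in sml1Δ and 1206, 1243, 1430 and 1265 in SSDDCS (−0.53, SE 0.18, adjusted p = 0.0126). YTM1 of PeBoW had 1822, 1040, 988 and 1826 against 1026, 840, 1005 and 915 (−0.53, SE 0.24, adjusted p = 0.0633). DRS1, another DEAD-box helicase, had 2730, 1573, 1556 and 2876 against 1504, 1331, 1656 and 1405 (−0.51, SE 0.21, adjusted p = 0.0388). In all of them sml1Δ replicates 1 and 4 lay far above the SSDDCS libraries and replicates 2 and 3 within or near their range.

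The other end of the list held NOG2, NSR1 and SDA1. NOG2, a GTPase of late nuclear large-subunit particles, was the one member with a higher mean in SSDDCS at 30 min, with 2578, 1674, 1494 and 2246 in sml1Δ and 2409, 2182, 2394 and 2294 in SSDDCS (0.25, SE 0.17, adjusted p = 0.237). NSR1 had 7729, 4775, 4417 and 8246 against 5908, 5886, 6470 and 5709 (−0.02, SE 0.22, adjusted p = 0.96). SDA1 had 2884, 1477, 1326 and 2871 against 1958, 1717, 2066 and 1781 (−0.10, SE 0.26, adjusted p = 0.779). Here the SSDDCS values fell between the sml1Δ cultures, and none of the 3 was called. The sign of NSR1 was positive (0.03 and 0.04) with equal library totals and with quantile normalization. NOG2 kept a positive difference from 25 to 60 min, between 0.05 and 0.40, with adjusted p of 0.106 or more. Its span holds SNR191 on the same strand, and whether reads of SNR191 entered its count was not tested.

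NOP1 had 8480, 5551, 5698 and 9219 in sml1Δ and 6453, 6039, 6449 and 5415 in SSDDCS at 30 min (−0.22, SE 0.18, adjusted p = 0.326). The groups overlapped, with 3 SSDDCS libraries between the sml1Δ cultures and SSDDCS replicate 4 just below the lowest of them. By role the medians at 30 min were −0.32 for box C/D, −0.35 for H/ACA, −0.26 for UtpA, −0.28 for UtpB, −0.28 for the other processome genes, −0.36 for PeBoW, −0.43 for the helicases, −0.32 for the GTPases and −0.27 for the other large-subunit and export factors.

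**Figure D3:**
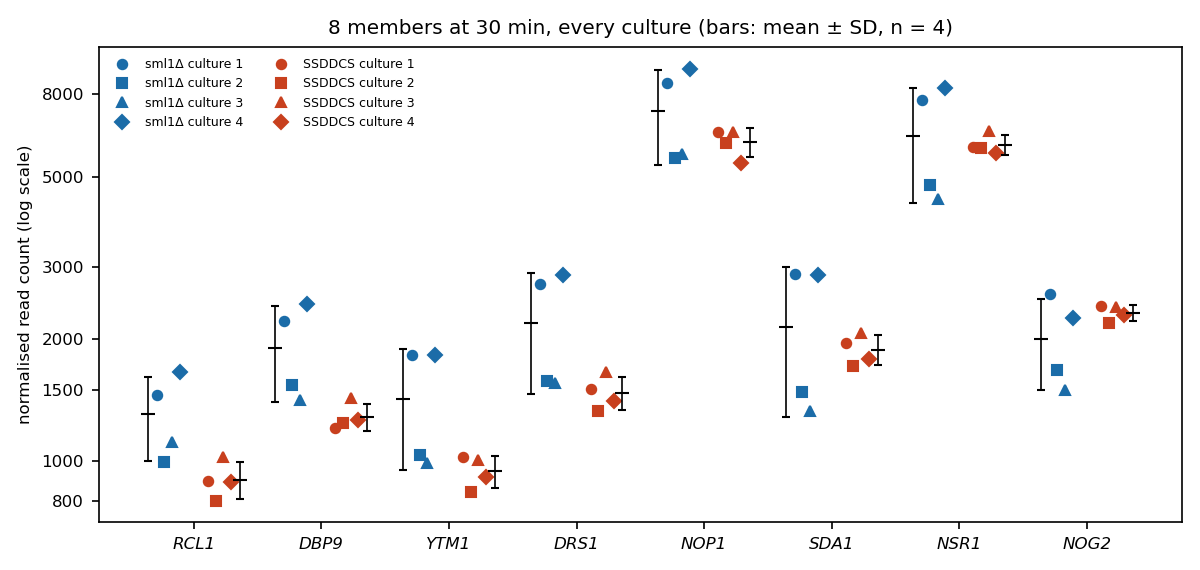
Normalised read count at 30 min after release (vertical axis, log scale) of 8 members in every replicate of sml1Δ (blue) and SSDDCS (orange), with the mean and SD (n = 4) as black bars beside the points. In each gene the sml1Δ points spread more widely than the SSDDCS points, and RCL1 has 1453, 998, 1118 and 1661 against 893, 800, 1023 and 892.

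The number of members called at 25 to 35 min turned on single cultures. At 30 min it was 15 without sml1Δ replicate 3, 5 without sml1Δ replicate 2, and 0 without sml1Δ replicate 1 or SSDDCS replicate 2. Without sml1Δ replicate 3 it was also 14 at 25 min, 4 at 35 min and 1 at 20 min, against 0 with all libraries. Without sml1Δ replicate 1 it was 1 at 50 min. With all libraries 17.9%, 21.5%, 31.2% and 27.4% of all genes were called from 20 to 35 min. The share under each left-out culture is not given, so the higher counts are not read as an effect on the members. The direction of the median held at 20 to 40 min under all 20 alternatives, with a range at 30 min from −0.42 to −0.20. At 50 and 60 min it stayed positive, from 0.12 to 0.34 and from 0.01 to 0.25, and at 45 min it took both signs, from −0.08 to 0.13.

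**Figure D4:**
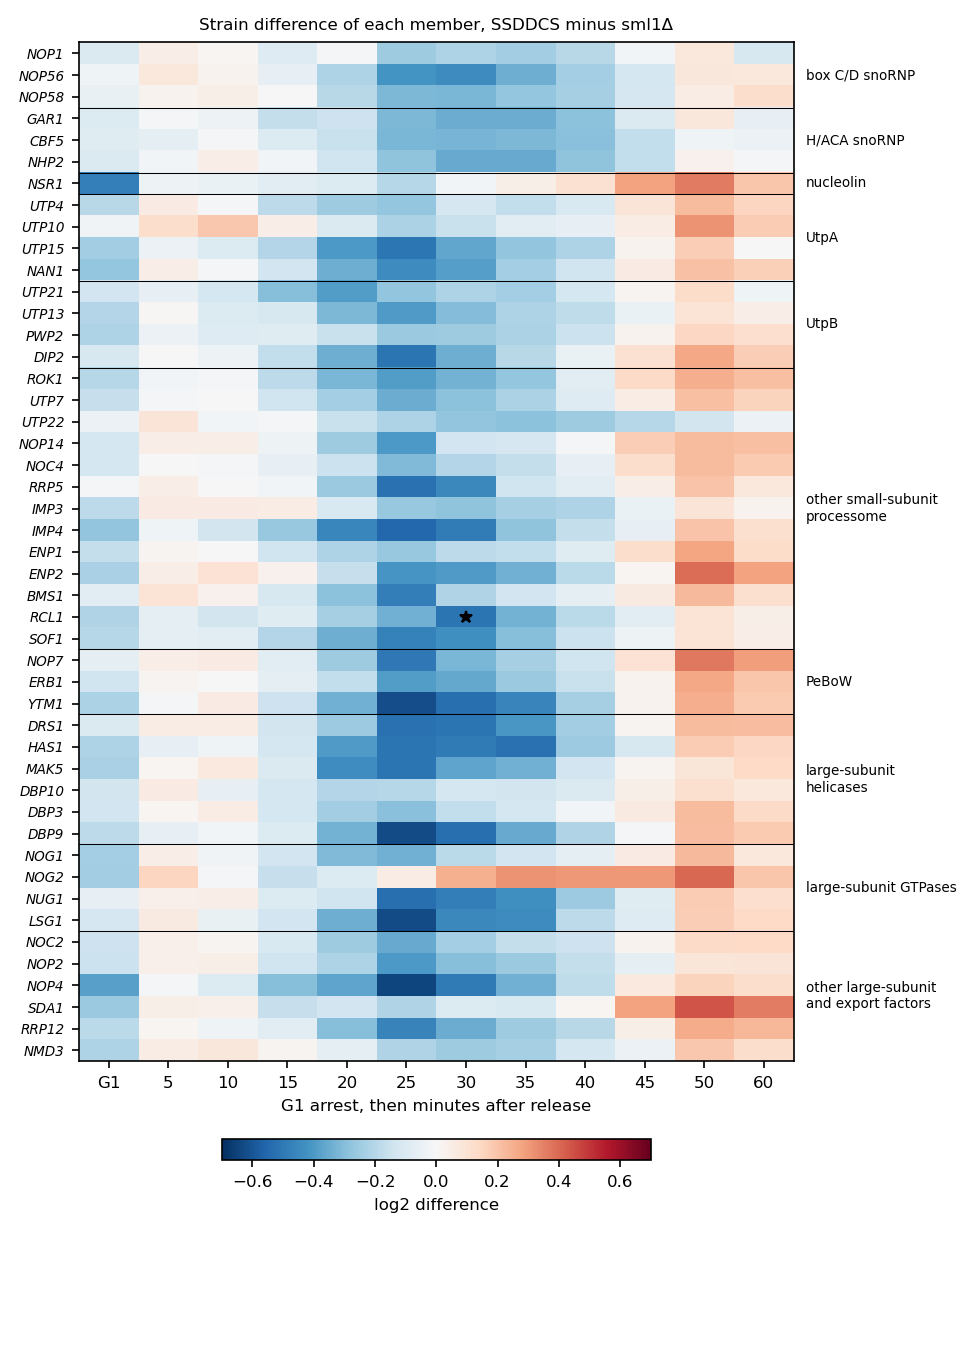
Log2 difference between the strains (SSDDCS minus sml1Δ, colour, blue for lower in SSDDCS) for each of the 47 members (rows, ordered by role) in G1 and at 11 times after release (columns). Blue deepens from 20 to 35 min with medians of −0.25, −0.39, −0.32 and −0.25, red appears at 50 min with a median of 0.20, and the star marks RCL1 at 30 min, the one call.

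Among related lists at 30 min, where 31.2% of all genes were called, the 81 other assembly factors had a median of −0.33 with 4 called, all lower, among them NOB1, NOP53 and NOP16 (−0.48, −0.48 and −0.47). Of 12 RNA polymerase III subunits 4 (33.3%, near that share) were called lower, led by RPC37 (−0.67, SE 0.16), and of 16 genes of RNA polymerase I and its factors 2, RPA12 (−0.59, SE 0.18) and HMO1 (−0.39, SE 0.06). HMO1, whose product binds ribosomal DNA and ribosomal protein promoters, had 1918 to 2135 in sml1Δ and 1436 to 1755 in SSDDCS, with no overlap. Of 9 regulators of ribosome genes RAP1 was called lower (−0.56, SE 0.12) and CRF1, a corepressor of ribosomal protein genes, higher (1.33, SE 0.15), with 85.4 to 126 in sml1Δ and 247 to 302 in SSDDCS. The 137 ribosomal protein genes had a median of −0.14 with 2 called lower, RPS9A and RPL43B.

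A test over all 11 times for a strain difference that departed from the one in G1 called 0 of 47 members (2 at an unadjusted p under 0.05, with 0 by edgeR and 0 by DESeq2), where 22.2% of genes were called. At the unadjusted limit 38.1% of genes passed. The lowest adjusted p was 0.105, for DIP2 of the UtpB complex. Without sml1Δ replicate 1 the count was 1. With a correlation between the libraries of a culture in the fit it was 9, among them DBP9, DIP2, DRS1 and YTM1, and 42.3% of genes were called.

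The difference between the strains in each step was also tested. None of the 4 steps called a member in limma with no culture or replicate term, in edgeR or in DESeq2, with 0, 0, 1 and 16 members at an unadjusted p under 0.05. From G1 to 5 min and from 5 to 15 min 0.0312% of genes were called, from 15 to 30 min 5.61% and from 30 to 60 min 7.37%. At the unadjusted limit 2.30%, 5.86%, 24.3% and 28.5% of genes passed, beside 34.0% of members in the last step. The step from 30 to 60 min had the largest median, 0.39, and 46 of 47 members had a step higher in SSDDCS than in sml1Δ, NOG2 being the exception (−0.06). DRS1 and DBP9 had the largest values, 0.73 (SE 0.29, adjusted p = 0.0795) and 0.71 (SE 0.25, adjusted p = 0.043). With the culture correlation 9 members were called in this step, all with a higher step in SSDDCS and among them DBP9, DRS1, YTM1 and RCL1, against 18.5% of genes. With the replicate number as a block DBP9 and RCL1 were called, against 13.9%.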

How the data were processed

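RNA-seq values were taken from 1 table of 6444 genes by 96 columns, of which 94 matched a sample and 2, which match no sample, were not used. The authors aligned reads to the S288C genome (R64; bowtie2 in the methods, TopHat2 2.0.6 and sacCer3 in the submitters' notes), counted them per gene and divided the counts by DESeq2 size factors, so that the deposited values are a depth-scaled signal (normalised read counts). Strand was not kept by the kit named in the methods, and changes in total RNA per cell are not measured. Whole reads were recovered for 100% of values (tolerance 0.001). The 47 members and all gene lists were chosen with earlier results of these data known.

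The 6414 genes whose mean reached 10 were fitted with limma 3.58.1 (R 4.3.3, trend) on log2(value + 1), with 24 group means, so fold changes of low genes are understated. Contrasts were the strains at each time, 4 time steps per strain, the difference of each step and all times against G1, with Benjamini-Hochberg adjusted p under 0.01 over all genes. Background shares leave out 10 construct genes. Replicate numbers across strains were not used as pairs in the main fit, and the labels do not say that they are matched. Libraries of the same number did deviate alike, with 38 of 47 correlations of deviations over 0.1 (median 0.39, lowest −0.36). The main strain comparisons leave this shared structure out, and the block by number was an alternative. Steps within a strain were also paired by culture, because the methods describe serial sampling and 31 of 32 correlations exceeded 0.1. Nothing says that cultures were started separately. The main fit pools the spread of all 24 groups and treats serial libraries of a culture as independent, though their estimated correlation was 0.3765. Its p-values thus do not measure the spread between the cultures at a single time. Within groups, 138 pairs of libraries all differed by more than counting noise (lowest chi-square per degree of freedom 10.7). Values in every library at 30 min are given for NOP1, the 3 highest and 3 lowest members and those called at the most times. For the course, the 3 members with the widest and the 3 with the narrowest range in sml1Δ were named, and from other lists up to 3 called genes per direction. Other members were named where a call or an extreme fell on them. edgeR 4.0.16 and DESeq2 1.42.0 on the recovered reads, other scalings, pseudocounts, filters, blocks and left-out cultures were alternatives. The fit was tested on simulated independent counts with the same dispersion in every library and no culture effect. That test does not cover the unequal spread of the strains or the correlation within cultures.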

Additional observations from a re-analysis of the deposited data

Results flagged for a closer look

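In groups of 4, a library whose gap to the nearest other took up nearly the whole range of the group, past the 95% limit of Dixon's test, was looked at again, and chance flags about 1 in 20 groups. Of 38 groups tested (22 of mean member levels and 16 of the 8 named members at 30 min), 2 were picked out, both mean log2 levels of the 47 members in sml1Δ replicate 1. At 5 min its level was 11.30, with the other 3 libraries between 11.13 and 11.14. At 50 min it was 11.27, with the other 3 between 10.63 and 10.64. These include replicate 4, which went against the other cultures at 50 and 60 min (10.64 and 10.94). Replicate 1 was also the most deeply sequenced, its libraries holding 20480360 reads at the median, while the medians of the other sml1Δ replicates lay between 9636933 and 10373375. Replicate 4, with a median of 9961798 reads, stood at 11.38 at 30 min, where replicate 1 stood at 11.39. The part of depth in the level of replicate 1 was not tested, nor that of the replicate 4 library in the 50 min flag.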

How the results depend on the processing

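Of 495 counts of called members under alternatives, 432 stayed within 1.5 times the main count, 46 were higher and 17 lower. Most main counts were 0, where staying within this limit only means that the count remained 0. The 432 therefore says little about the counts above 0. Between strains, 1 member was called at 30 min and 0 at the other times. The replicate block (number as a fixed term) gave 1, 7, 10 and 3 from 20 to 35 min, and DESeq2 gave 2 and 3 at 25 and 30 min. A correlation within cultures (estimated at 0.3765) gave 3 and 5 at 25 and 30 min, and a fit to 30 min alone gave 0. Without 1 culture at a time the counts ranged from 0 to 1 at 20 min, 0 to 14 at 25 min and 0 to 15 at 30 min, then 0 to 4 and 0 to 1 at 35 and 50 min. For the departure from G1 (main 0) the culture correlation gave 9 and single cultures left out 0 to 1. For the step from 30 to 60 min between strains (main 0), the replicate block gave 2 and the culture correlation 9. For the counts between strains from 20 to 50 min the share of all genes under each alternative is not given. Those counts are thus not read as results about the members.

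Steps within strains moved most with the culture terms. In sml1Δ from 5 to 15 min (main 0) the culture correlation gave 4, quantile normalization 1, the replicate block by number 1 and by culture 5, with 0 to 1 without single cultures. In sml1Δ from 30 to 60 min (main 2) the values were 21 with the culture correlation, 4 with equal library totals, 4 with quantile normalization, 11 with the 50 and 60 min labels of replicate 4 exchanged, 10 with the replicate block by number and 24 by culture, and 0 to 2 without single cultures. Leaving out those 2 libraries of replicate 4, an alternative chosen after seeing the data, gave 7. In SSDDCS from 5 to 15 min (main 2) the culture correlation gave 17, equal library totals 1, quantile normalization 1, the block by number 10 and by culture 19, with 0 to 5 without single cultures. In SSDDCS from 15 to 30 min (main 0) they were DESeq2 1, culture correlation 7, equal totals 2, block by number 3 and by culture 8, with 0 to 2 without single cultures. In SSDDCS from 30 to 60 min (main 1) the culture correlation gave 8, the block by number 3 and by culture 9, with 0 to 2 without single cultures. The step from G1 to 5 min stayed within 1.5 times in both strains, from 26 to 47 members. With the block by culture 42.1% and 49.9% of all genes were called in sml1Δ from 5 to 15 and 30 to 60 min, beside 5 and 24 of 47 members. In SSDDCS 40.5%, 45.8% and 53.4% were called from 5 to 15, 15 to 30 and 30 to 60 min, beside 19, 8 and 9 members. Apart from the main fit and the block by culture, the share of all genes under each alternative is not given for these steps. The counts without a share are not read as results about the members.

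RCL1 at 30 min kept a negative sign in all 20 alternatives and lost its call in 3 of them. The sign of NSR1 and SDA1 at 30 min turned when single cultures were left out (−0.17 to 0.13 and −0.30 to 0.08), and that of NSR1 also with equal totals and quantile normalization (0.03 and 0.04), with no call. The causes were not tested. A replicate number is shared by name between the strains, so a call gained under the block by number is not read as a stronger effect. No member had a normalised read count under 275 in any library.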
